A study of Homo sapiens with 6 samples.

Results

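The 34 genes described here are the Notch receptors, their ligands, the HES and HEY transcription factors and other targets, and the proteins that process, modify or transmit the Notch signal. They were chosen by name from a fixed list of symbols, all 34 were found among the 18056 genes of the deposited table, and 33 passed the filter on low counts. The exception was HEYL. Expression was measured by RNA sequencing of polyadenylated RNA in 6 libraries of forebrain organoids, cell aggregates that form tissue resembling the dorsal forebrain, grown from DYR0100, an established human induced pluripotent stem cell line whose genotype is given as WT. In 3 libraries the organoids had been given vehicle, and in 3 they had been given 5 µM Aβ42, the aggregation-prone amyloid-β peptide, for 6 days. The replicates of each group are stated to be biologically independent, and how many organoids went into each library is not given in the sources used here. All libraries carry the same batch label and come from 1 line, and the age of the organoids and the content of the vehicle are not given in the sources used here. The comparison asks which members differ between Aβ42 and vehicle.

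Notch is a receptor that is cut after a ligand on a neighbouring cell binds it. An ADAM protease makes the first cut at the cell surface, γ-secretase, which also cuts the amyloid precursor protein, makes the next one, and the freed intracellular domain joins the DNA-binding protein RBPJ and a Mastermind coactivator to switch on HES and HEY genes. In the developing cortex the HES repressors hold radial glia, the stem cells of the tissue, in the progenitor state by repressing proneural genes, while newly committed cells present Delta ligands to their neighbours.

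Promoter sequences of 5 of the genes grouped as targets are shown first, some with the RBPJ letters and some without. They were picked with their fold changes known, and a link between the letters and the direction of change was not tested. The sequence table from RefSeq (GRCh38.p14) held an entry for 28 of the 34 members, and DLL1, DLL3, DNER, HEY1, DTX1 and MFNG had none. Each line below gives the 250 bases upstream of the gene's start, 5′ to 3′ in the direction of transcription, for 3 HES genes with a match to the core of the RBPJ motif (TGGGAA, or TTCCCA on the other strand) and for HES6 and NRARP, the 2 targets of over 100 counts on average that were lower with Aβ42. Capitals mark the matches. The windows are chr3:194135898-194136147 (plus strand), chr1:1000098-1000347 (minus strand), chr1:2530264-2530513 (minus strand), chr2:238240039-238240288 (minus strand) and chr9:137302272-137302521 (minus strand).
HES1: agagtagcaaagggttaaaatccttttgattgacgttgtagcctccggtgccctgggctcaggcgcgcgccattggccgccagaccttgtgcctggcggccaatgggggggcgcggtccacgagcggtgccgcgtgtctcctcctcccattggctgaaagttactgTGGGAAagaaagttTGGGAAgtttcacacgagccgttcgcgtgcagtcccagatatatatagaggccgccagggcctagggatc
HES4: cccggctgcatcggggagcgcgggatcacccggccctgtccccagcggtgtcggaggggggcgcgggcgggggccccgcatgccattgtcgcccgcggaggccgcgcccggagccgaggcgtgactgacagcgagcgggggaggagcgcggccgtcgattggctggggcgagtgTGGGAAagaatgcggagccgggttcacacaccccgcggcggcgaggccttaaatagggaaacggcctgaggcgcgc
HES5: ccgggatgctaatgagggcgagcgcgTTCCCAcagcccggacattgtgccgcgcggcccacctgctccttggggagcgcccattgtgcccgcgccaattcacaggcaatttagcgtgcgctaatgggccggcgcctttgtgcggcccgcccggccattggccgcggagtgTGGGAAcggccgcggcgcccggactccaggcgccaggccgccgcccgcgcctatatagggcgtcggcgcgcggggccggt
HES6: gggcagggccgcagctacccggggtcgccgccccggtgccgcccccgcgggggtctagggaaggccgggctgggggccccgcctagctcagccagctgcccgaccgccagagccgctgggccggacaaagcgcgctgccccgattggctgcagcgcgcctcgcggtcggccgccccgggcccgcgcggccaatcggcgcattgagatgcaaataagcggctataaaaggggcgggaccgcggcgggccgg
NRARP: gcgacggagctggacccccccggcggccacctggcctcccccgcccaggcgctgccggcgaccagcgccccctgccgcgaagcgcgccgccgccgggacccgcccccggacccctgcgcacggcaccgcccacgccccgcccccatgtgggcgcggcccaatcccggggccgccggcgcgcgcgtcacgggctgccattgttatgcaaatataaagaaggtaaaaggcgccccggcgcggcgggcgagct
HES1 held the letters at 84 and 70 bases upstream of its start, HES5 at 224 (other strand) and 80, and HES4 at 76, while the windows of HES6 and NRARP held none. Across the 28 members with an entry, 7 held at least 1 match (HES1, HES4, HES5, HEY2, HEYL, LFNG and RBPJ) and 4 held at least 2. The log2 fold changes of the members with a match did not share a sign. Those of HES1, HES4, HES5 and RBPJ were positive, and HEYL was not tested. HEY2 and LFNG were at -0.25 ± 0.32 and -0.013 ± 0.17 (SE), each smaller in size than its SE, so a direction could not be told for them. Of the 36 windows of these members 19.4% held a match, against 20.8% of all 35116 windows in the table, so the share of member windows with a match was not above that of all windows. The N box CACNAG, a sequence that HES proteins bind and that reads CTNGTG on the other strand, was in 9 of the 36 member windows (25%) and in 32.0% of all windows, with every match counted and no overlap between the motifs removed. A match is a run of letters and was not measured as a bound site in these organoids.

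Levels are compared between genes as TPM, which the authors scaled for gene length. Among the members the ligand-like gene DNER had the highest level, 255 ± 21.1 TPM in vehicle (mean ± SD, n = 3), followed by RBPJ at 129.8 ± 3.05 and the γ-secretase subunit gene APH1A at 105 ± 3.09 TPM. The receptors stood in the order NOTCH2 (73.0 ± 2.27), NOTCH1 (39.2 ± 3.62) and NOTCH3 (15.1 ± 0.378 TPM), and no 2 receptors overlapped across the 6 libraries. In vehicle the Delta and Jagged ligands were below NOTCH1 and NOTCH2, and of them only DLL1 and JAG2 were above NOTCH3. These ligands stood at 18.6 ± 1.55 for DLL1, 17.97 ± 1.35 for JAG2, 10.2 ± 0.412 for DLL3 and 8.23 ± 0.522 TPM for JAG1, and DLL4 was at 1.67 ± 0.245 TPM. The libraries of DLL1 and JAG2 overlapped, and the other neighbours in that order did not in vehicle. Among targets HES6 (59.0 ± 2.001) and HES4 (48.0 ± 7.10) led in vehicle, HEY1 (32.6 ± 2.07), HES1 (22.9 ± 1.41) and NRARP (14.6 ± 1.53) followed, and HES5 (2.43 ± 0.950) and HEY2 (1.06 ± 0.150 TPM) were low. In vehicle each HES6 library was above each HES4 library, while with Aβ42 HES6 was at 45.4 ± 8.30 and HES4 at 52.0 ± 2.63 TPM and the libraries of the genes overlapped.

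**Figure D1:**
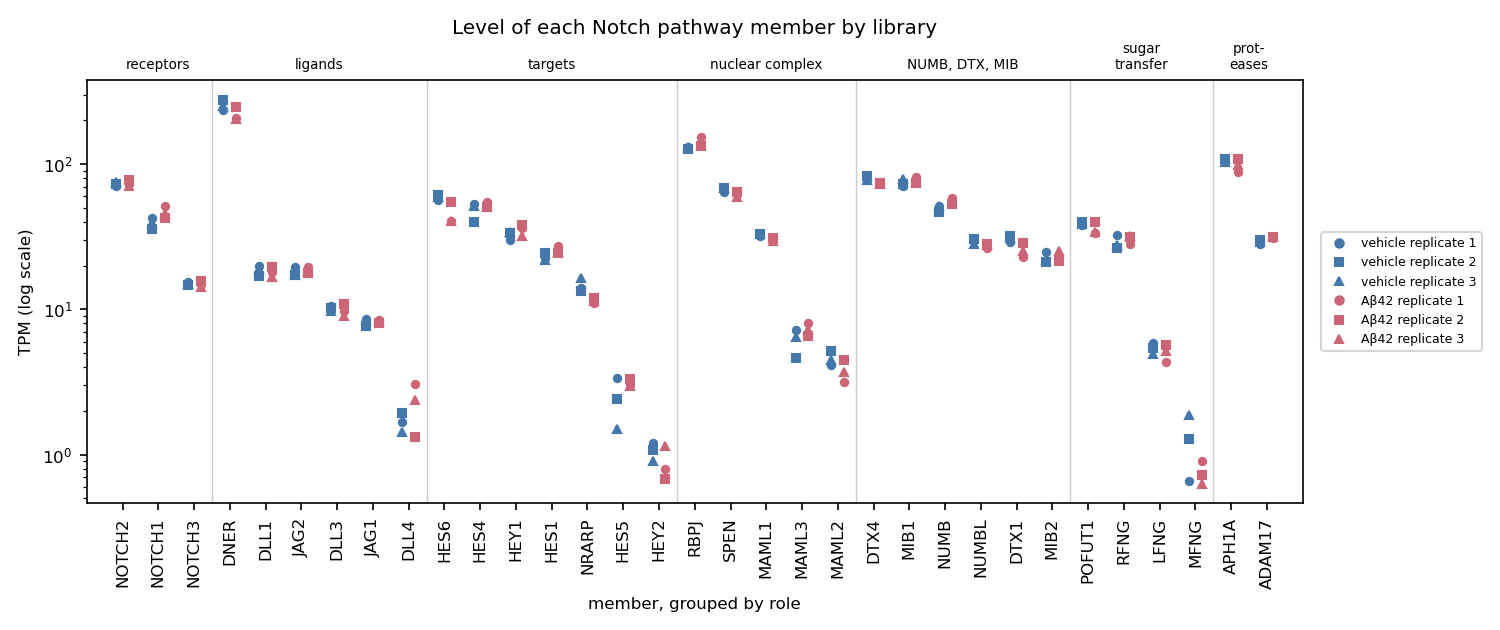
TPM on a log axis for 33 members grouped by role, with 1 point for each of the 6 libraries (3 vehicle, 3 Aβ42). HEYL, at or near 0, is left out. DNER and RBPJ stand highest, the HES and HEY genes span more than 1 decade, and within nearly every member the points of the groups lie close together.

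Forebrain identity of the organoids was checked on 9 markers, each of which had counts in every library. CPM here is the estimated count relative to the TMM-scaled library size. Total estimated counts were 16465390 to 16742958 per library. DLL4, HEY2 and HEYL are also genes of vessels, and most endothelial markers were near the detection limit. PECAM1, CDH5, TIE1, VWF and EMCN had at most 3 counts in any library and ESAM at most 4. CLDN5 had 16 to 49 counts and TEK 7 to 15. The 8 markers summed to 2.19 to 3.95 CPM over the vehicle libraries and 1.86 to 2.73 CPM over the Aβ42 libraries. Of the 8 microglial markers, C1QA, TREM2 and TYROBP were at 0 counts throughout. The 8 summed to 0.420 to 0.975 CPM over the vehicle libraries and 0.487 to 0.839 CPM over the Aβ42 libraries. Markers of mural and mesenchymal cells, which are known for NOTCH3, summed to 57.5 to 93.1 CPM over the vehicle libraries and 50.7 to 60.0 CPM over the Aβ42 libraries. DCN alone was at 58.6 CPM in vehicle replicate 2. The mural genes of the list did not share a direction. PDGFRB had means of 17.3 CPM in vehicle and 19.6 CPM with Aβ42, TAGLN 9.21 and 12.1, ACTA2 1.72 and 1.74, and RGS5 3.37 and 2.68. The libraries numbered 2 stood apart in both groups: choroid plexus markers summed to 948 CPM in vehicle replicate 2 and 884 CPM in Aβ42 replicate 2, and to 384 to 488 CPM in the other 4. Same-numbered libraries deviated from their group means together (correlations of 0.132 to 0.409 over 12187 genes). Differently numbered ones were at -0.313 to 0.188. Vehicle 3 with Aβ42 1 (0.188) and vehicle 1 with Aβ42 3 (0.176) exceeded the pair numbered 3 (0.132). The correlations therefore set the number 2 apart but do not tell numbers 1 and 3 apart. Results blocked on the number are given wherever a call depends on it, and they rest on this uncertain pairing. Counts were not whole, and so may include shared reads, in NOTCH2, DLL1, SPEN, DTX1, APH1A and ADAM17. As this is bulk RNA, fewer cells of a type and less RNA per cell cannot be told apart in any result below.

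Differences between groups were small, and the members split in both directions. In edgeR's quasi-likelihood test without a block, 0 of the 33 tested members passed an adjusted p-value of 0.05, as did 0% of the 13842 genes tested. At an unadjusted p-value below 0.05 stood 8 members (24.2%, beside 23.9% of all genes). The 4 higher ones were NOTCH1, RBPJ, NUMB and ADAM17 (12.4% of all genes were higher), and the 4 lower ones were DNER, HES6, NRARP and DTX1 (11.5% of all genes were lower).

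With the replicate block 6 members (18.2%) had an edgeR adjusted p-value below 0.05, beside 14.2% of all genes. NOTCH1, NUMB and MAML3 rose in that fit, where 7.12% of all genes were higher, and DNER, HES6 and DTX1 fell, where 7.05% were lower. DESeq2's Wald test without a block called 1 member, NOTCH1, beside 5.81% of all genes (2.77% higher and 3.03% lower). CPM values of the groups did not overlap in 9 members, or 27.3%, beside 27.0% of all genes. These were HES1, RBPJ, NUMB and ADAM17 on the higher side (13.6% of all genes) and HES6, NRARP, MAML1, DTX1 and DTX4 on the lower side (13.4%). The median log2 fold change of Aβ42 over vehicle was 0.025 over the members and 0.0032 over all genes, and the median size regardless of sign was 0.14 and 0.12. Apart from the 1 call by DESeq2, these shares lay near those of the whole table, so they show nothing particular to the Notch genes.

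**Figure D2:**
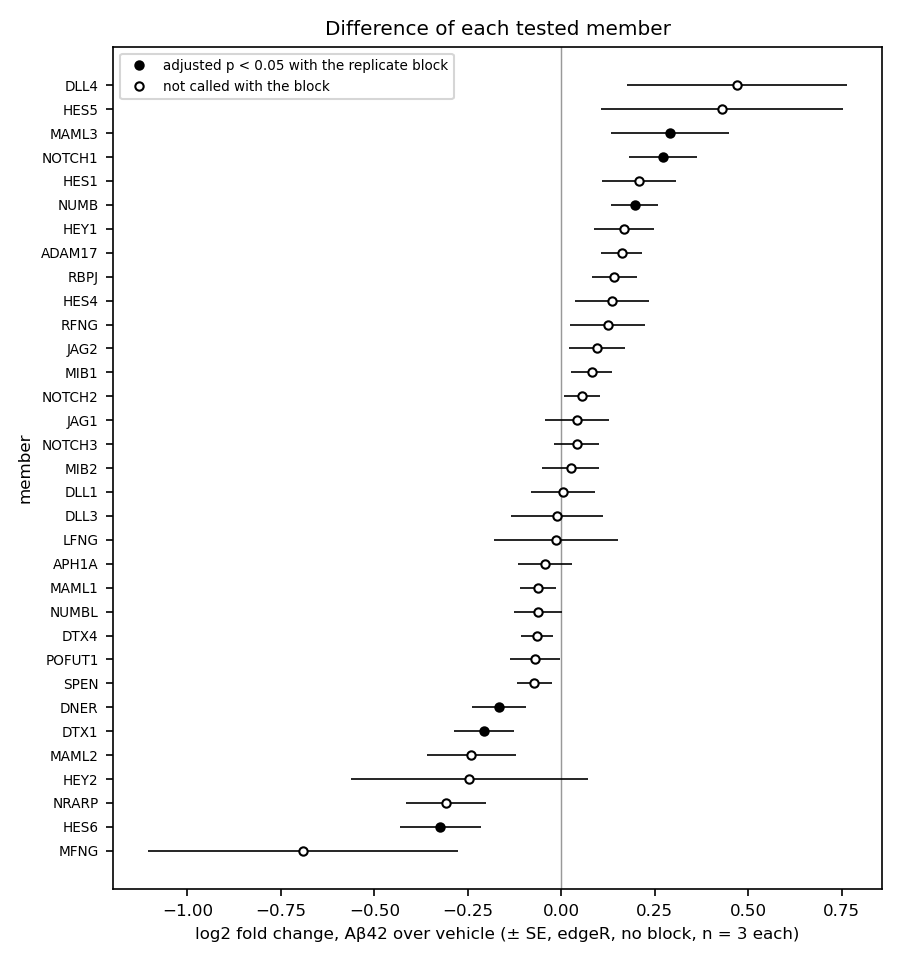
Log2 fold change of Aβ42 over vehicle (edgeR without a block, n = 3 each) for the 33 tested members, with bars of 1 SE. Filled points are the 6 members with an adjusted p-value under 0.05 with the replicate block. The wide bars belong to DLL4, HES5, HEY2 and MFNG, which had few counts.

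Of the receptors, only NOTCH1 had an unadjusted p-value below 0.05 in edgeR without a block, on the higher side. No receptor passed the adjusted threshold in that fit. NOTCH1 (Entrez gene ID 4851, chr9:136494433-136546048) was at 159.5, 129 and 147 CPM in vehicle replicates 1 to 3, against 193, 157 and 175 CPM in Aβ42 replicates 1 to 3. The groups overlapped by a small margin, as Aβ42 replicate 2 lay just below vehicle replicate 1. Its log2 fold change was 0.27 ± 0.091 (SE), with an adjusted p-value of 0.128 in edgeR and of 0.00203 with the replicate block. The ratio of Aβ42 to vehicle within a replicate number was nearly the same in each of the 3 pairs, at 0.27, 0.29 and 0.26 on the log2 scale. DESeq2 gave an adjusted p-value of 0.0373. Leaving out Aβ42 replicate 1 took the log2 fold change to 0.20, and leaving out vehicle replicate 2 took it to 0.19.

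NOTCH2, the receptor with the highest level, was at 331, 328 and 346 CPM in the vehicle libraries against 339.8, 363 and 341 CPM in the Aβ42 libraries, with overlapping groups and a log2 fold change of 0.055 ± 0.048 (SE, adjusted p-value 0.501). The human-specific copies NOTCH2NLA, NOTCH2NLB and NOTCH2NLC are near-identical to the first part of NOTCH2. These copies, which were looked up after the values of NOTCH2 were seen and which are known to act in human cortical progenitors, had means of 18.2 ± 2.96, 62.5 ± 5.03 and 44.5 ± 4.22 CPM in vehicle. With Aβ42 they had 19.8 ± 1.92, 63.6 ± 3.61 and 47.5 ± 0.773 CPM, and their adjusted p-values were 0.567, 0.846 and 0.432. How reads were divided among the 4 genes is not given, so their levels are uncertain. NOTCH3 was at 52.0, 47.8 and 49.6 CPM in the vehicle libraries against 50.3, 53.6 and 49.8 CPM in the Aβ42 libraries, with a log2 fold change of 0.041 ± 0.060 (SE, adjusted p-value 0.704) that was -0.018 on the log2(TPM + 1) scale.

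Among the 6 ligands only DNER had an unadjusted p-value below 0.05 in edgeR without a block, on the lower side, and none passed the adjusted threshold there. DNER (92737, chr2:229357629-229714555) encodes a transmembrane protein of neurons with epidermal growth factor repeats that has been described as a non-classical Notch ligand. It was at 289, 331 and 302 CPM in vehicle replicates 1 to 3, against 258, 302 and 261 CPM in Aβ42 replicates 1 to 3. Aβ42 replicates 1 and 3 lay below each vehicle library, while Aβ42 replicate 2 lay among them. The log2 fold change was -0.17 ± 0.072 (SE), and the adjusted p-value was 0.191 without the block and 0.0284 with it. Neuron markers were lower in sum beside DNER: the 12 genes summed to 7721 to 8145 CPM over the vehicle libraries and 7253 to 7502 CPM over the Aβ42 libraries. At an unadjusted edgeR p-value below 0.05, 1 was higher and 6 lower, beside 12.4% and 11.5% of all genes. The higher one was SNAP25 (log2 fold change 0.15, without overlap), and STMN2 (0.016), SYT1 (0.0044) and NEUROD6 (-0.00078) hardly differed. The part of neuron markers in the DNER difference was not tested.

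DLL1, the Delta ligand of newly committed cells, was at 28.3, 23.6 and 25.9 CPM in the vehicle libraries against 25.9, 27.7 and 24.5 CPM in the Aβ42 libraries, and its log2 fold change of 0.0055 ± 0.086 (SE) changed sign between fits. DLL3, which acts within the cell to dampen Notch, was at 7.99, 7.66 and 7.38 CPM in the vehicle libraries against 7.61, 8.31 and 6.89 CPM in the Aβ42 libraries (-0.013 ± 0.12 SE), and its sign also varied. JAG1 and JAG2 had log2 fold changes of 0.042 ± 0.085 (SE) and 0.095 ± 0.075 (SE) with adjusted p-values of 0.792 and 0.454, and the fold change of JAG1 was -0.018 without vehicle replicate 2. DLL4, a ligand best known from vessels, had only 30 to 40 counts in vehicle and 29 to 66 with Aβ42. It was at 2.16, 2.43 and 1.83 CPM in the vehicle libraries against 4.02, 1.72 and 3.18 CPM in the Aβ42 libraries, so that Aβ42 replicates 1 and 3 were above vehicle and replicate 2 was below it. Its log2 fold change was 0.47 ± 0.29 (SE, adjusted p-value 0.349), and without Aβ42 replicate 2 it was 0.75 (0.0335).

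The HES and HEY members did not share a direction: HES1, HES4, HES5 and HEY1 had positive and HES6 and HEY2 negative log2 fold changes. HES6 was the 1 target of 7 tested that passed with the block, a share near the 14.2% of all genes called in that fit. HES1 (3280, chr3:194136148-194138732), the repressor that sustains progenitors and is the textbook readout of Notch, was at 11.7, 12.5 and 11.2 CPM in vehicle replicates 1 to 3, against 14.6, 12.8 and 13.5 CPM in Aβ42 replicates 1 to 3. In CPM each Aβ42 library was above each vehicle library, though Aβ42 replicate 2 exceeded vehicle replicate 2 by little. These libraries had 215 and 205 counts, and the counting error at the mean count of HES1 was 6.90%. In TPM Aβ42 replicate 2 (24.26) was below vehicle replicate 2 (24.51), so on that scale the groups overlapped. Its log2 fold change was 0.21 ± 0.099 (SE), with adjusted p-values of 0.227 without and 0.198 with the block.

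HES5 (388585, chr1:2528745-2530263), the other main Notch-driven repressor of cortical radial glia, had only 10 to 24 counts in vehicle and 21 to 25 with Aβ42. That corresponds to 1.44, 0.972 and 0.610 CPM in the vehicle libraries against 1.28, 1.48 and 1.32 CPM in the Aβ42 libraries, in which vehicle replicate 1 overlapped the Aβ42 libraries. With a counting error of 22.5% at its mean count, a log2 fold change of 0.43 ± 0.32 (SE) was not distinguishable from 0 at this depth (adjusted p-value 0.434). HES4 (57801), a family member found in humans but not in mice, was at 18.8, 14.8 and 17.2 CPM in the vehicle libraries against 19.6, 18.4 and 17.9 CPM in the Aβ42 libraries. Its groups overlapped through vehicle replicate 1, and the log2 fold change was 0.14 ± 0.10 (SE, adjusted p-value 0.423).

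HES6 (55502, chr2:238238267-238240038) differs from the other HES genes in that it promotes neuronal differentiation, opposes HES1 and is made by committed progenitors. It was at 24.6, 25.8 and 25.2 CPM in vehicle replicates 1 to 3, against 18.03, 24.1 and 18.3 CPM in Aβ42 replicates 1 to 3. The 3 vehicle libraries lay close together, with a mean of 25.2 ± 0.574 CPM (SD), Aβ42 replicates 1 and 3 were well below them, and Aβ42 replicate 2 was just below the lowest of them. The log2 fold change was -0.32 ± 0.11 (SE), with an adjusted p-value of 0.121 in edgeR, of 0.0204 with the replicate block and of 0.00168 without Aβ42 replicate 2, a fit in which 23.1% of all genes passed (11.6% lower). Within replicate numbers the log2 ratios were -0.45, -0.096 and -0.46.

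Other genes of committed progenitors were lower beside HES6. In the list of 9 proneural and intermediate progenitor genes the summed level was 267 to 300.0 CPM over the vehicle libraries and 196 to 229 CPM over the Aβ42 libraries. Of 8 tested genes 0 were higher and 5 lower at an unadjusted edgeR p-value below 0.05, where 11.5% of all genes were lower. With the block 4 were lower, beside 7.05% of all genes. EOMES, the factor that marks intermediate progenitors, was at 102, 124 and 99.4 CPM in the vehicle libraries against 58.8, 75.7 and 49.1 CPM in the Aβ42 libraries (log2 fold change -0.83 ± 0.17 SE, adjusted p-value 0.0779, 2.44e-06 with the block). NHLH1 was at 11.2, 12.5 and 11.8 CPM in the vehicle libraries against 5.85, 8.49 and 6.65 CPM in the Aβ42 libraries (-0.76 ± 0.14 SE, 0.0684, 0.000875 with the block). NEUROG2, a proneural gene that HES1 represses, had a log2 fold change of 0.040 and overlapping groups. Proliferation genes were lower as well, summing to 988 to 1175 CPM over the vehicle libraries and 646 to 911 CPM over the Aβ42 libraries. Of the 15, 14 were lower at an unadjusted edgeR p-value below 0.05, beside 11.5% of all genes. The part of these markers in the HES6 difference was not tested.

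**Figure D3:**
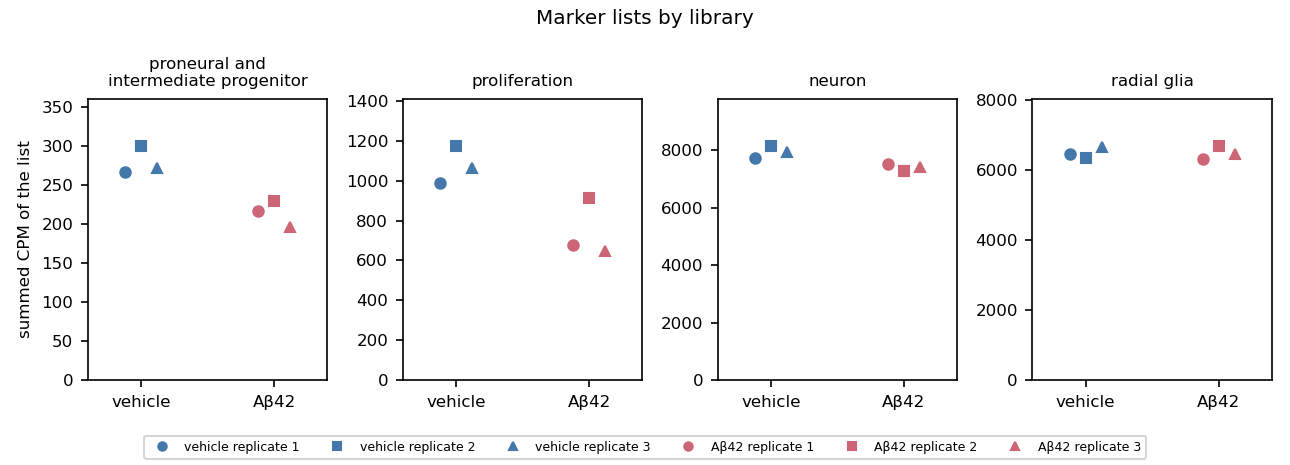
Summed TMM-normalised CPM of 4 marker lists in each library, with axes from 0. The proneural and intermediate progenitor list (196.2 to 229.0 CPM with Aβ42) and the proliferation list lie lower with Aβ42 without overlap, the neuron list by less, and the radial glia list overlaps between groups.

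HEY1, a Notch target of the Hairy-related family, was at 23.6, 25.6 and 26.2 CPM in the vehicle libraries against 28.9, 29.9 and 25.9 CPM in the Aβ42 libraries. Aβ42 replicates 1 and 2 were above vehicle and replicate 3 was among the vehicle libraries, and the log2 fold change was 0.17 ± 0.080 (SE, adjusted p-value 0.228). HEY2 had 12 to 20 counts and HEYL 0 to 2 counts per library, the latter at or under the limit of 3 counts (0.179 to 0.182 CPM), so a change in HEYL was not detectable. HEY2 was at 1.201, 1.15 and 0.853 CPM in the vehicle libraries against 0.792, 0.712 and 1.199 CPM in the Aβ42 libraries, with overlapping groups and a log2 fold change of -0.25 ± 0.32 (SE). HES7, a HES gene known from the segmentation clock, is no member but belongs to the wider list of pathway genes, and it is given here after its values were seen. It was at 5.28, 4.56 and 4.33 CPM in the vehicle libraries against 7.80, 6.29 and 5.40 CPM in the Aβ42 libraries, where each Aβ42 library was above each vehicle library. HES7 had a log2 fold change of 0.46 ± 0.17 (SE), with adjusted p-values of 0.147 without and 0.0471 with the block, so with the block HES7 was called higher and HES6 lower.

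NRARP, a Notch target that feeds back to dampen the receptor's nuclear complex, had the opposite sign to HES1. NRARP (441478, chr9:137299631-137302271) was at 13.6, 12.7 and 15.6 CPM in vehicle replicates 1 to 3, against 10.8, 11.6 and 11.4 CPM in Aβ42 replicates 1 to 3. Every Aβ42 library was below every vehicle library, and the Aβ42 libraries lay closer together than the vehicle ones. The log2 fold change of NRARP was -0.31 ± 0.11 (SE), with adjusted p-values of 0.124 without and 0.0634 with the block, and 0.0534 without Aβ42 replicate 2. Among the radial glia in which HES1, HES5 and NRARP are usually found, marker levels were mixed without the block. The 14 markers summed to 6347 to 6640 CPM over the vehicle libraries and 6292 to 6683 CPM over the Aβ42 libraries. At an unadjusted p-value below 0.05 in edgeR, 2 were higher and 3 lower, beside 12.4% and 11.5% of all genes. The higher ones were FABP7 (log2 fold change 0.14) and FAM107A (0.16), each without overlap. With the block 0 were higher and 3 lower, beside 7.12% and 7.05% of all genes. The lower ones were HOPX (-0.46 in that fit, adjusted p-value 0.000503), SLC1A3 (-0.23, 0.00919) and NES (-0.20, 0.0208). SOX2 (0.070) and PAX6 (0.029) had small log2 fold changes and overlapping groups. The part of radial glia in these values was not tested.

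**Figure D4:**
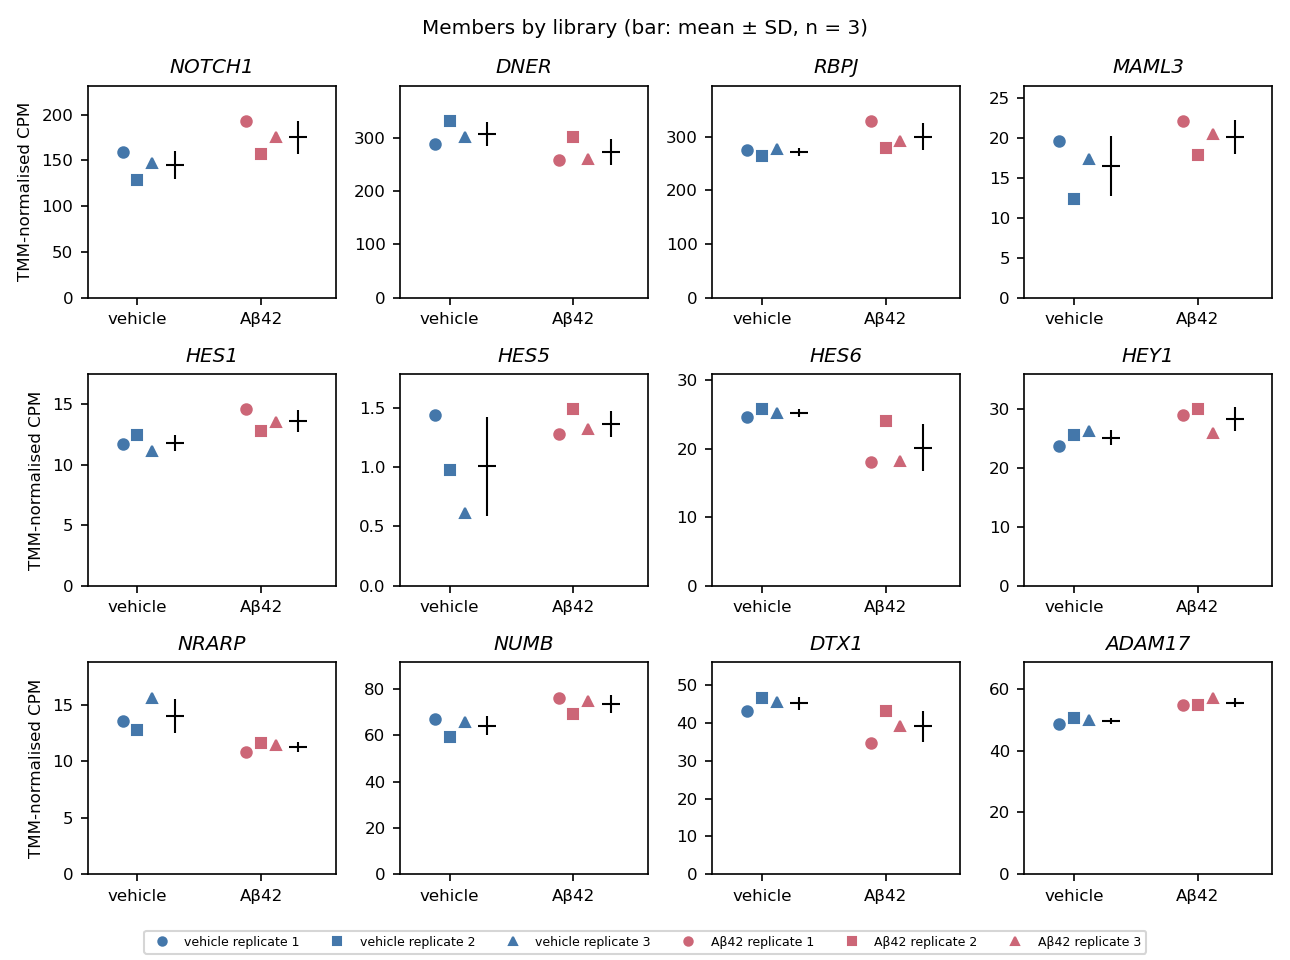
TMM-normalised CPM of 12 members in each of the 6 libraries, with axes from 0; points are libraries, crosses the mean ± SD (n = 3). HES1, RBPJ, NUMB and ADAM17 lie higher and HES6, NRARP and DTX1 lower with Aβ42 without overlap. In NOTCH1, DNER, RBPJ, MAML3, HES1, HES6, NRARP, NUMB and DTX1 Aβ42 replicate 2 is the Aβ42 library nearest to the vehicle mean.

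In the nuclear complex, only RBPJ had an unadjusted p-value below 0.05 in edgeR without a block, on the higher side. The 3 Mastermind genes did not share a direction. RBPJ (3516, chr4:26105449-26435131), the DNA-binding partner of every Notch receptor, was at 275, 263 and 277 CPM in vehicle replicates 1 to 3, against 329, 279.9 and 292 CPM in Aβ42 replicates 1 to 3. Groups did not overlap, but Aβ42 replicate 2 exceeded the highest vehicle library by little. The log2 fold change was 0.14 ± 0.061 (SE), with adjusted p-values of 0.191 without and 0.0831 with the block, and the log2 fold change was 0.073 without Aβ42 replicate 1 and 0.19 (adjusted p-value 0.0265) without Aβ42 replicate 2.

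The Mastermind coactivators join RBPJ and the cut receptor on DNA. MAML3 was at 19.6, 12.3 and 17.4 CPM in the vehicle libraries against 22.1, 17.9 and 20.5 CPM in the Aβ42 libraries, where vehicle replicate 2 was far below the other libraries. For MAML3 the log2 fold change was 0.29 ± 0.16 (SE), the adjusted p-value was 0.288 without and 0.0389 with the block, and without vehicle replicate 2 the log2 fold change was 0.12. MAML2 was at 11.1, 13.2 and 11.8 CPM in the vehicle libraries against 9.02, 11.3 and 10.3 CPM in the Aβ42 libraries, with Aβ42 replicate 2 above vehicle replicate 1 and a log2 fold change of -0.24 ± 0.12 (SE, adjusted p-value 0.242). MAML1 and SPEN, a corepressor that RBPJ recruits when Notch is off, had log2 fold changes of -0.062 ± 0.049 (SE) and -0.072 ± 0.046 (SE), with adjusted p-values of 0.452 and 0.361. The groups did not overlap in MAML1, where the difference was from 73.2 ± 1.22 to 70.1 ± 0.791 CPM.

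Among regulators of the receptor and its ligands, NUMB (higher) and DTX1 (lower) had unadjusted p-values below 0.05 in edgeR. In the edgeR fits of all 6 libraries each passed the adjusted threshold with the block and not without it. Each also passed in edgeR with no block once Aβ42 replicate 2 was left out (adjusted p-values 0.0158 and 0.0144). NUMB (8650, chr14:73275216-73458546), an endocytic adaptor that antagonises Notch in 1 daughter of an asymmetric division, was at 67.2, 59.4 and 65.9 CPM in vehicle replicates 1 to 3, against 76.3, 69.3 and 75.0 CPM in Aβ42 replicates 1 to 3. Each Aβ42 library was above the vehicle range, and the log2 ratios within replicate numbers were 0.18, 0.22 and 0.19. The log2 fold change was 0.20 ± 0.064 (SE), with adjusted p-values of 0.115 without and 0.0275 with the block. In GENCODE release 29 an exon of NUMB overlaps another gene on the same strand, and how such reads were counted is not given. Its homologue NUMBL had a log2 fold change of -0.062 ± 0.064 (SE, adjusted p-value 0.570).

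DTX1 (1840, chr12:113056730-113098025), a ubiquitin ligase that binds the receptor and is itself induced by Notch, was at 43.2, 46.7 and 45.6 CPM in the vehicle libraries against 34.8, 43.2 and 39.3 CPM in the Aβ42 libraries. Aβ42 replicate 2 was at the lower edge of vehicle (just below vehicle replicate 1), and replicates 1 and 3 were below. Its log2 fold change was -0.21 ± 0.080 (SE), with adjusted p-values of 0.156 without and 0.0465 with the block. DTX4 went from 172 ± 2.90 to 165 ± 0.634 CPM (mean ± SD, n = 3), without overlap, and its log2 fold change of -0.065 ± 0.043 (SE) had an adjusted p-value of 0.377. MIB1, the ubiquitin ligase that drives ligand endocytosis, and MIB2 had log2 fold changes of 0.081 ± 0.056 (SE) and 0.025 ± 0.075 (SE), with overlapping groups.

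None of the 4 genes that place sugars on Notch had a p-value under 0.05 in edgeR. POFUT1, which adds O-fucose, was at 77.5, 77.6 and 77.2 CPM in the vehicle libraries against 68.6, 81.9 and 70.7 CPM in the Aβ42 libraries, with Aβ42 replicates 1 and 3 below and replicate 2 above vehicle (-0.070 ± 0.067 SE, adjusted p-value 0.539, 0.0492 without Aβ42 replicate 2). Of the Fringe enzymes, which lengthen that sugar and so change ligand preference, RFNG had a log2 fold change of 0.12 ± 0.10 (SE) and LFNG one of -0.013 ± 0.17 (SE). MFNG, with 8 to 22 counts, was at 0.480, 0.911 and 1.34 CPM in the vehicle libraries against 0.670, 0.534 and 0.480 CPM in the Aβ42 libraries, and its log2 fold change of -0.69 ± 0.41 (SE) was the lowest of the members and was not distinguishable from 0 at this depth (adjusted p-value 0.331).

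The protease ADAM17 (6868, chr2:9488486-9555830), one of the enzymes that can make the surface cut, was at 48.6, 50.7 and 49.9 CPM in vehicle replicates 1 to 3, against 54.8, 54.8 and 57.2 CPM in Aβ42 replicates 1 to 3. Every Aβ42 library was above every vehicle library, and Aβ42 replicate 2 did not stand apart. The log2 fold change was 0.16 ± 0.055 (SE), with adjusted p-values of 0.121 without and 0.0901 with the block. Its counts were not whole and its exons overlap those of IAH1 on the opposite strand, and whether counting used strand is not given. APH1A, a γ-secretase subunit, was at 67.4, 69.2 and 65.8 CPM in the vehicle libraries against 58.4, 71.5 and 66.4 CPM in the Aβ42 libraries (-0.044 ± 0.072 SE, adjusted p-value 0.733).

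**Figure D5:**
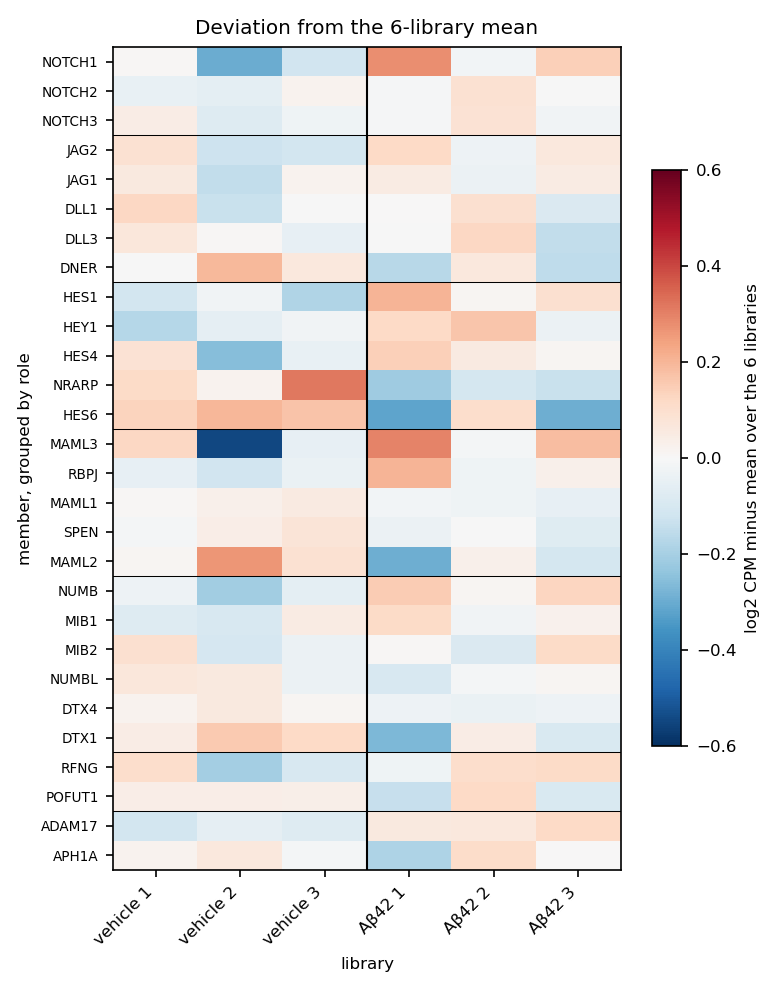
Deviation of log2 CPM from the mean of the 6 libraries for the 28 members with a mean of at least 100 counts, grouped by role, with red above and blue below the mean. In NOTCH1, JAG2, HES4, MAML3, RBPJ, NUMB and MIB1 vehicle replicate 2 is the lowest and Aβ42 replicate 1 the highest library. In DNER, HES6, MAML2 and DTX1 this is reversed.

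How far the result turned on Aβ42 replicate 2 was counted. In 7 of the 8 members at an unadjusted p-value below 0.05 it was the Aβ42 library nearest to the vehicle mean, and in 6 of the 6 called with the block, as in 82.3% of all genes at an unadjusted p-value below 0.05. Without it 8 members had an edgeR adjusted p-value below 0.05, 4 higher (11.5% of all genes) and 4 lower (11.6%), beside 23.1% of all genes in either direction. The higher ones were NOTCH1 (adjusted p-value 0.0228 in that fit), DLL4 (0.0335), RBPJ (0.0265) and NUMB (0.0158), and the lower ones were DNER (0.00978), HES6 (0.00168), DTX1 (0.0144) and POFUT1 (0.0492). Without replicate 2 of both groups, a fit added after seeing the data, 6 members passed, 2 higher (8.19% of all genes) and 4 lower (8.50%), beside 16.7% in either direction. The part of the choroid plexus markers in this was not tested.

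A wider list of 52 genes that act in or around the pathway was read the same way, and 48 of them were tested. Unadjusted p-values were below 0.05 in 8 higher and 5 lower genes, or 27.1% beside 23.9% of all genes, with 0 past the adjusted threshold (0% of all genes), 4 by DESeq2 (8.33% beside 5.81%), and 7 higher and 3 lower with the block (20.8% beside 14.2%). Groups did not overlap in 17 of the 48, 11 higher and 6 lower, or 35.4% beside 27.0% of all genes. The median log2 fold change of the list was 0.014. TLE2, a Groucho corepressor that HES proteins recruit, was at 23.7, 20.2 and 21.3 CPM in the vehicle libraries against 28.4, 26.1 and 29.6 CPM in the Aβ42 libraries, without overlap. TLE2 had a log2 fold change of 0.37 ± 0.085 (SE, adjusted p-value 0.0734, 0.00537 with the block). KAT2A, an acetyltransferase, had a log2 fold change of 0.30 ± 0.080 (SE, 0.0836, 0.00356 with the block) and DVL1, a Wnt transducer that can bind Notch, one of 0.20 ± 0.062 (SE, 0.107, 0.0423 with the block).

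On the lower side, EP300, the acetyltransferase that Mastermind recruits, was at 174, 177 and 178 CPM in the vehicle libraries against 152, 158 and 144 CPM in the Aβ42 libraries. The groups did not overlap, and the log2 fold change was -0.22 ± 0.048 (SE, adjusted p-value 0.0722, 0.0101 with the block). Its paralogue CREBBP, named after its values were seen, had a log2 fold change of -0.31 ± 0.11 (SE, 0.161, 0.0120 with the block), and its Aβ42 replicate 2 was close to vehicle, at 156 CPM against 112 and 118 CPM in replicates 1 and 3. XXYLT1, which extends the O-glucose sugar of Notch, and the ubiquitin ligase gene DTX3L had log2 fold changes of -0.18 ± 0.067 (SE) and -0.66 ± 0.25 (SE), with adjusted p-values of 0.141 and 0.149 (0.0168 with the block for DTX3L). DTX3L rested on few counts, with 2.40 to 5.96 CPM over the libraries. The γ-secretase genes NCSTN and APH1B had log2 fold changes of -0.053 and -0.0030, and PSEN2, named after its values were seen, had one of -0.30 ± 0.13 (SE, adjusted p-value 0.205).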

How the data were processed

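Per the submitters' processing notes, FastQC, STAR 2.7.11b, featureCounts 2.0.6 and the GRCh38 build were used, and no annotation or strand setting is given in the sources used here. For every gene the authors deposited, per the file headers, read counts (estimated counts, as only 86.9% to 87.5% of values are whole) and length-scaled TPM. Counts were rounded, filtered with filterByExpr (13842 genes kept), scaled by TMM and compared with edgeR 4.0.16 (quasi-likelihood, robust, no block) in R 4.3.3. Tests were two-sided, with Benjamini-Hochberg adjustment over all tested genes and a threshold of 0.05. The SE was taken from the fold change and the F statistic. DESeq2 1.42.0 and limma 3.58.1 gave alternatives. The scripts were tested on simulated data.

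The members, the lists and the naming rule (the lowest p-value in each role, every tested HES and HEY member, 3 genes per direction of the wider list) were chosen with earlier results of these data known. Other members with full values were added because their groups did not overlap or the block called them. Library pairs differed by 3.16 to 21.2 chi-square units per gene, above the 1 of sampling noise, so 6 separate libraries were used. The closest pair joined the groups, as vehicle replicate 1 and Aβ42 replicate 2 differed by 3.16. Aβ42 replicate 2 was nearer to vehicle replicates 1 to 3 (3.16, 7.71 and 4.58) than to Aβ42 replicates 1 and 3 (9.40 and 8.49). Same-numbered libraries correlated in their deviations at 0.189, 0.409 and 0.132, each above 0.1, so the numbers were taken as pairs in the fit with a block. This rests on the data, not on the labels. Differently numbered libraries reached 0.188, so the pairing of numbers 1 and 3 is not settled by the data. Gene positions and promoters are from RefSeq GRCh38.p14. Precision covers counting error and library spread, since no molecular identifiers are mentioned.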

Additional observations from a re-analysis of the deposited data

How the results depend on the processing

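The fit without both libraries numbered 2 was added after seeing the data, and the other alternatives were listed earlier. The 0 genes and 0 members past the adjusted threshold became 1962 and 6 with the replicate block, 804 and 1 with DESeq2, 2457 and 6 with limma-voom quality weights, and 2316 and 6 without replicate 2 of both groups. With no filter on low counts 360 genes and 0 members passed. Leaving out 1 library gave 0 to 3224 genes and 0 to 8 members, with calls only without Aβ42 replicate 2. The block changed the call of NOTCH1, NUMB, MAML3, DNER, HES6 and DTX1 and of no other member.

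The 4 members higher at an unadjusted p-value under 0.05 were 7 with quality weights, 2 by limma on log2 TPM with a pseudocount of 1 or 0.1, and 2 to 6 without 1 library (2 without vehicle replicate 2 or Aβ42 replicate 1). The 4 lower were 1 to 6, with 1 without vehicle replicate 3, Aβ42 replicate 1 or Aβ42 replicate 3 and 2 without vehicle replicate 2. In the wider list the 8 higher were 5 on both TPM scales and 5 to 10 without 1 library, and the 5 lower were 3 with DESeq2 and 1 to 7 without 1 library, lowest on either side without vehicle replicate 2 or Aβ42 replicate 1. Non-overlapping members, 4 higher and 5 lower, were 7 and 9 without replicate 2 of both groups, and 4 to 11 and 5 to 9 without 1 library, where fewer libraries make overlap less likely. The test alone does not enter that count, so it has no value under the block, DESeq2, limma-voom or non-robust dispersion. The members' median log2 fold change was -0.018 and -0.019 on these TPM scales, with the median of all genes at -0.040 on the first, -0.022 without replicate 2 of both groups, and -0.014 to 0.063 without 1 library. The cause was not tested.

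Of 594 member values, 19 changed sign, in 7 members whose log2 fold change was at most 0.044 in size. NOTCH3 was at -0.018 and -0.019 on the TPM scales and -0.022 without replicate 2 of both groups. DLL1 was at -0.028 with quality weights, -0.032 and -0.034 on the TPM scales and -0.11 without replicate 2 of both groups, DLL3 at 0.0025 and LFNG at 0.0020 under upper-quartile scaling. Without 1 library the ranges were -0.057 to 0.072 for DLL1, -0.081 to 0.054 for DLL3, -0.018 to 0.082 for JAG1, -0.029 to 0.082 for MIB2, -0.089 to 0.085 for LFNG and -0.11 to 0.032 for APH1A. DESeq2 gave no adjusted p-value for HES5, HEY2 and MFNG. With 12 to 20 counts on average these 3 genes are limited by depth.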

Other observations

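A further readout of the members is the length of transcript implied by the deposited values, as the estimated count divided by the TPM and scaled to the median gene of each library. It could be computed for 30 members with at least 20 counts and a TPM above 1 in every library. In 29 of the 30 the log2 ratio of Aβ42 over vehicle lay within -0.046 and 0.053, the range that holds the middle of the 12568 genes from the 5th to the 95th percentile. The exception was MIB2, at -0.057. Between single libraries the implied length varied by 16.7% in LFNG, 12.7% in MAML2, 11.8% in HES4 and 9.33% in MIB2, against 1.81% in the median gene. It varied by 0.987% in HES6, 0.838% in HES1 and 0.618% in NRARP, so the count differences of those 3 genes came without a like change in implied length.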
